A study of Sus scrofa with 6 samples.

Results

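The 10 neuropeptide genes HCRT, PMCH, NPVF, PTH2, CARTPT, NTS, SST, PNOC, TAC3 and CCK were followed in porcine midbrain-like organoids (pMLOs). They were found by symbol among the 30477 genes of the deposited matrices, and all 10 had UMIs in every library. The members were chosen by their levels and shares of positive cells on the 3 days in these same libraries, so differences in their levels between days are given as a description, with no test. Tests are run between gated cells of the same libraries, and of whether such a difference between gates was the same on D28 and D45. The gates are SLC17A6, GAD2, TH, GFAP and STMN2, the genes named for co-detection when the members were chosen, in the same libraries. Members and tests were chosen with earlier results of these data known, so the p-values are not independent support. The organoids were grown from a single porcine embryonic stem cell line, IVF_1_pESC_FIW, made from an in vitro fertilized blastocyst, and collected at D11, D28 and D45 of culture (days 11, 28 and 45), with 2 libraries, replicates A and B, at each time. All groups shared the same genotype and protocol. The cells were first patterned with SB431542 and Noggin, which block SMAD signalling, with the sonic hedgehog protein SHH-C24II and the GSK3 inhibitor CHIR99021, and then with FGF8. Later media held BDNF, GDNF, ascorbic acid, db-cAMP and DAPT, so D11 organoids had not yet had most of the maturation phase. The libraries were made with the GEM-X 3′ v4 chemistry, where each droplet adds a barcode to the mRNAs of its cell and every molecule gets a tag of its own, the UMI, near its 3′ end.

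A neuropeptide gene encodes a precursor that is cut at pairs of basic residues inside dense-core vesicles, and the freed peptide acts on G-protein-coupled receptors of other cells. HCRT (orexin) and PMCH (melanin-concentrating hormone) mark neurons of the lateral hypothalamus that act on wakefulness and feeding, and NPVF is made in the dorsomedial hypothalamus. SST, TAC3, PNOC, CCK, NTS and CARTPT are used by neurons of many brain regions, and CCK and NTS are also known from midbrain dopaminergic neurons.

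In the 102940 kept cells of the 6 libraries, 106805311 to 180034791 UMIs were counted per library, and the median cell had from 2300.5 UMIs in D45 replicate A to 10757 in D11 replicate A. The labels call the cells midbrain dopaminergic neurons. TH, the rate-limiting enzyme of dopamine synthesis, was found in 3.89% to 11.9% of cells per library, and SLC6A3, the dopamine transporter, in 0.241% to 1.21%, so most cells did not carry the defining markers of that label at this depth. Pairs of libraries shared 55 to 119 barcodes, at most 0.65% of the smaller library. No source used here says how the replicates were cultured apart from each other, beyond calling them duplicates, so p-values measure the spread between these libraries.

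The peptide-coding stretches of 4 precursors are shown because the results below turn on these mRNAs and because they show what each precursor yields. They were read from the RefSeq annotation of Sscrofa11.1. In HCRT, on the plus strand, the first stretch at chr12:20589586-20589693 encodes orexin-A and the second at chr12:20589694-20589786 encodes orexin-B, and in TAC3, on the minus strand, chr5:22328016-22328054 encodes neurokinin B. Capitals in these 3 mark the codons of the glycine and basic pair at which the peptide is amidated and cut. In SST, on the minus strand at chr13:125337560-125337610, and PMCH, on the plus strand at chr5:82019729-82020077 across 2 coding exons, capitals run from the first to the last cysteine codon, which close the ring of the cyclic peptide, and both stretches open with the codons of a basic pair. These rings span 12 codons in SST and 10 in PMCH.
HCRT orexin-A: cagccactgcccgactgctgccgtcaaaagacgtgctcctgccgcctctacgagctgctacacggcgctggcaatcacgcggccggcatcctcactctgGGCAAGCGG
HCRT orexin-B: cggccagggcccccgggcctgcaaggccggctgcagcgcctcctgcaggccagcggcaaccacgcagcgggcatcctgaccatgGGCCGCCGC
TAC3 neurokinin B: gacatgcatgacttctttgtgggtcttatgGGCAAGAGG
SST somatostatin: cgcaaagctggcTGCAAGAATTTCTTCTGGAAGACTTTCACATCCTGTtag
PMCH melanin-concentrating hormone: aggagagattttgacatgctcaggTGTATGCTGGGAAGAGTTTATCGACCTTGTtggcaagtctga

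The genes lie on 7 chromosomes of Sscrofa11.1. PMCH (ENSSSCG00000000858, chr5:82018915-82020267), TAC3 (ENSSSCG00000000418, chr5:22324927-22336464) and NTS (ENSSSCG00000000932, chr5:96261299-96272947) share chromosome 5, and SST (ENSSSCG00000033815, chr13:125337560-125338742) and CCK (ENSSSCG00000011277, chr13:25940674-25945879) share chromosome 13. HCRT (ENSSSCG00000017410) is at chr12:20588597-20589991, NPVF (ENSSSCG00000036611) at chr18:47082678-47087651, and CARTPT (ENSSSCG00000016972) at chr16:48043558-48045592. PNOC (ENSSSCG00000032600) is at chr14:12101223-12134174 and PTH2 (ENSSSCG00000003171) at chr6:54504871-54506149. The counts are of 3′ ends of whole gene models, and no isoform was separated.

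The level of each gene is given in CPM, its UMIs among 1000000 UMIs of a library, summed over all kept cells, in the order D11 A, D11 B, D28 A, D28 B, D45 A and D45 B. In such sums, fewer cells of a type and less RNA per cell cannot be told apart. Only PMCH was highest on D11. HCRT, NPVF, PTH2, CARTPT, PNOC and CCK were near the bottom of their range on D11, and TAC3 and SST were also lowest in both D11 libraries. SST, NTS and NPVF had their highest library on D45.

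**Figure D1:**
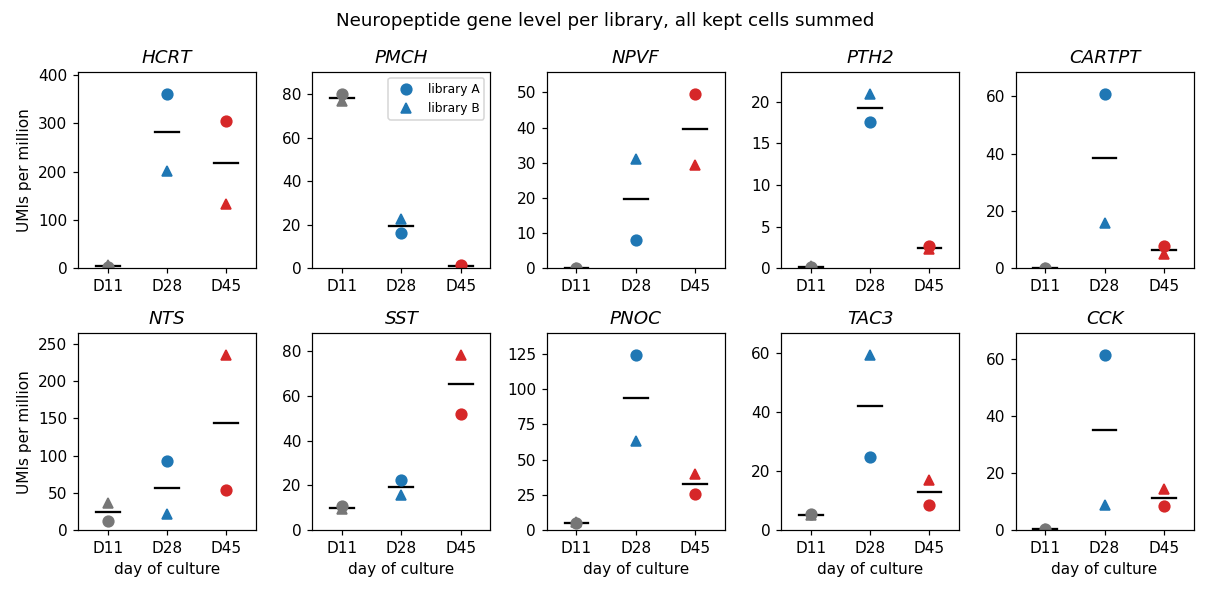
Level of each neuropeptide gene in CPM (vertical axis, a separate linear scale from 0 for each gene) by day of culture, with a circle for library A, a triangle for library B and a bar at the mean of the 2 libraries. PMCH falls from 80.3 and 76.8 on D11 to 1.50 and 0.851 on D45, HCRT goes from 2.50 and 7.30 to 361 and 201 on D28, and SST reaches 52.0 and 78.2 on D45.

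A cell with 1 UMI of a neuropeptide gene is not by itself a cell that expresses it, because RNA released into the suspension can enter droplets. The part of such RNA in these counts was not tested. Cells rich in collagen transcripts (at least 10 UMIs over COL1A1, COL3A1, LUM and DCN), which should lack these peptides, served as the reference. On D28 and D45, in 20 of 40 combinations of gene and library the share of all cells with at least 1 UMI was at or below that in the collagen cells. For HCRT on D28 A, 28.4% of all cells (median depth 5505 UMIs) but 40.8% of 1507 collagen cells (median depth 13835 UMIs) had a UMI. Cells with at least 10 UMIs were therefore described as high cells, a cut chosen after the data were seen. Where a library had 0 of them on D11, 3 cells of the total allow a share of up to 0.0204% (D11 A) or 0.0139% (D11 B). In 20 of the 40 combinations no collagen cell reached it, and the highest share of collagen cells that did was 8.50%, for HCRT on D28 B. In 12 of the 40 the share of all cells at 10 UMIs was still at or below that of the collagen cells. These were both D28 libraries of HCRT, NPVF, CARTPT, NTS and PTH2, with PNOC on D28 B and PTH2 on D45 B. For HCRT 2.69% and 2.20% of all cells on D28 but 7.30% and 8.50% of collagen cells were high cells, for NTS 1.20% and 0.519% but 5.18% and 5.50%, and for PTH2 on D28 B 0.447% but 4% of 200 collagen cells. For these genes on D28 the reference cells as used here reached the cut more often than cells at large. With 0 UMIs of the neuron marker STMN2 also required, as planned, 559 and 80 collagen cells remained on D28. Of these, 3.40% and 2.5% were HCRT-high, 2.68% and 5% NTS-high, and 0.537% and 5% PTH2-high. CARTPT-high cells were 1.07% and 0% of them, and NPVF-high cells 0% in both libraries. The part of RNA from other cells in the high cells of these genes was not tested.

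HCRT, the precursor of the orexins, stood at 2.50, 7.30, 361, 201, 304 and 133 CPM, so both D28 and both D45 libraries lay above both D11 libraries, while D28 and D45 overlapped. The mean of D28 was 57.4 times that of D11, 38.5 times without D11 A and 112 times without D11 B. At least 1 UMI was found in 0.687%, 0.756%, 28.4%, 18.7%, 21.4% and 9.64% of cells, but high cells numbered only 8, 15, 385, 305, 274 and 86. On D28 and D45 these were 2.69%, 2.20%, 1.36% and 0.467% of cells, and they held 84.3%, 84.6%, 84.4% and 87.3% of all HCRT UMIs. A single cell reached 1908, 2417, 1040 and 1695 UMIs in these 4 libraries. HCRT mRNA was therefore concentrated in few cells, with a thin layer over many others.

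The HCRT-high cells carried less of the neuron markers in sum than the cells they were compared with, most clearly on D28 A. After each cell was thinned to 1000 UMIs, STMN2, a growth-cone protein of neurons, was found in 13.3%, 23.3%, 22.9% and 18.5% of HCRT-high cells against 55.3%, 45.4%, 45.0% and 40.1% of the other cells (D28 A, D28 B, D45 A, D45 B). At the cells' own depth their median STMN2 count was 1, 1, 1 and 1.5 UMIs. For scale, collagen and myelin cells had a thinned STMN2 UMI in 7.65% to 17.3% of cells on these days. The 5 neuron markers (STMN2, DCX, ELAVL3, SNAP25 and MAPT) summed to 252, 575, 978 and 1040.0 CPM in HCRT-high cells and to 2858, 1944, 1768 and 1667 in cells with 0 HCRT UMIs.

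In sum, the HCRT-high cells carried more of the genes of progenitors, by little on D28, of ciliated cells and, on D28, of the floor plate. Some HCRT-high cells were rich in collagen transcripts, as 7.30% of 1507 and 8.50% of 200 collagen cells on D28 were HCRT-high. The HCRT-high cells numbered 385 and 305 there, so collagen-rich cells were a sizable part of them on D28 A. The marker sums were not taken without these cells. The progenitor markers VIM, HES1, NES and SOX9, a list added after the data were seen, summed to 4315, 5206, 12882 and 13786 CPM against 3743, 3874, 3568 and 5275 in cells without HCRT. FOXJ1, RSPH1 and TEKT1, which are needed for motile cilia, summed to 73.7, 46.9, 386 and 296 against 21.5, 23.0, 32.2 and 26.4, with all 3 markers higher in each library. The floor plate markers CORIN, NTN1, SPON1, SHH and FOXA2, also listed after the data were seen, summed to 1112, 1983, 326 and 195 against 444, 874, 183 and 270.0, with all 5 higher on both D28 libraries and 1 of 5 on D45 B. The astrocyte markers GFAP, AQP4, GJA1 and SLC1A3 summed to more than in the cells without HCRT on D45 (991 against 368, and 1172 against 441). The sums of the GABAergic and of the glutamatergic markers were below in every library. By their lowest log2 ratio over the 4 libraries, the leading genes were IFI6, ISG12(A) and LGALS3BP, which are interferon-induced, and then CNMD and TFPI2. LHX9 led the regional factors and was higher in all 4 libraries, least on D28 A (a log2 ratio of 1.31 with 5 CPM added) and at 178, 206 and 160 CPM against 11.2, 16.4 and 6.70 in the others. It was found in 3.12% to 52.6% of HCRT-high cells per library. IFI6 stood at 3054, 3419, 1179 and 2104 CPM in HCRT-high cells and at 716, 719, 117 and 253 in cells with none.

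PMCH, the precursor of melanin-concentrating hormone, ran the other way in time. Its level was 80.3, 76.8, 16.1, 22.9, 1.50 and 0.851 CPM, with no overlap between any of the 3 days, and the D11 mean was 4.04 times that of D28 and the D28 mean 16.6 times that of D45. High cells numbered 351, 252, 19, 27, 2 and 3. On D11 the neuron markers were low in them. A thinned STMN2 UMI was found in 3.1% and 3.6% of PMCH-high cells against 11.9% and 15.2% of the others, their median STMN2 count was 0, and the neuron markers summed to 135 and 113 CPM against 814 and 918. The mitotic markers TOP2A, CENPF and UBE2C were higher in them, at 1559 and 1380 against 829 and 733.

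The D11 cells high in PMCH shared a set of patterning genes. DBX1, a homeobox factor of neural progenitors, stood at 205 and 201 CPM against 26.4 and 22.4, and WNT8B, a secreted signal of the forebrain, at 276 and 239 against 42.8 and 26.2. ADAMTS20, KCND2 and SIM2 followed. Among the regional transcription factors the leading ones were SIM2, at 58.5 and 64.4 against 7.71 and 5.87, then NKX2-1, a factor of the ventral forebrain and hypothalamus, at 141 and 131 against 38.9 and 21.2, then OTX2. On D28 B the 27 PMCH-high cells differed from those of D11, since 63.0% had a thinned STMN2 UMI against 44.8% of other cells and their neuron markers summed to 2920 against 1698 CPM.

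NPVF encodes RFamide-related peptides that act on the reproductive axis. It stood at 0.190, 0.122, 8.19, 31.1, 49.7 and 29.5 CPM, and D28 and D45 overlapped, with D28 A far below the other 3 late libraries. High cells numbered 1, 1, 5, 32, 79 and 41. In the 3 libraries with at least 20 of them, a thinned STMN2 UMI was found in 21.9%, 5.1% and 9.8% of NPVF-high cells against 44.9%, 44.8% and 40.1% of others, and a GFAP UMI in 6.2%, 16.7% and 14.6% against 0.3%, 5.9% and 7.2%. The progenitor markers summed to 10221, 25573 and 22420 CPM against 4116, 4069 and 5662. NPVF-high cells were often HCRT-high too: 21 of 32 on D28 B, 40 of 79 on D45 A and 20 of 41 on D45 B. CAPN6 and VGLL2 were among the leading genes enriched in them, with CAPN6 at 207, 513 and 787 against 7.40, 26.2 and 11.9. FEZF2 and LHX9, the second as for HCRT, both factors of the developing forebrain, led the regional transcription factors.

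PTH2, the precursor of the peptide TIP39, was a gene of D28. It stood at 0.145, 0.250, 17.5, 21.0, 2.64 and 2.32 CPM, so both D28 libraries lay above all others and the D28 mean was 7.75 times that of D45. High cells numbered 0, 1, 23, 62, 5 and 4. On D28 a thinned STMN2 UMI was found in 8.7% and 11.3% of PTH2-high cells against 53.8% and 45.0% of others, and a GFAP UMI in 17.4% and 12.9% against 0.4% and 0.2%. The astrocyte markers summed to 844 and 1057 CPM against 100 and 87.1, although 1 of the 4 was at 0 in each library, and the progenitor markers to 15328 and 12802 against 3900.0 and 4000.

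TFPI2, an inhibitor of serine proteases, stood at 2986 and 762 CPM in PTH2-high cells against 68.8 and 22.3 in cells with none. CAPN6 and VGLL2, also among the leading genes for NPVF, followed, and LHX9 led the regional factors at 277 and 170 against 3.23 and 15.7. On D28 B, 12 of the 62 PTH2-high cells were also NPVF-high and 12 were HCRT-high, and on D28 A 6 of 23 were HCRT-high.

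CARTPT encodes the cocaine- and amphetamine-regulated transcript peptide. It stood at 0.032, 0.056, 60.9, 15.7, 7.86 and 5.16 CPM, and the lowest D28 library lay above both D45 libraries, a 5.88-fold difference of the means that was 2.41-fold without D28 A and 9.35-fold without D28 B. High cells numbered 0, 0, 73, 27, 11 and 13. CARTPT-high cells of D28 were mixed, since neuron markers (4396 and 3247 CPM against 2131 and 1637), progenitor markers (8194 and 9398 against 4013 and 4175) and astrocyte markers (343 and 1057 against 99.3 and 101) summed to more than in the cells without CARTPT. All 5 neuron markers but 2 of 4 progenitor and 2 of 4 astrocyte markers were higher in each library, with 1 astrocyte marker at 0 on D28 B. SCG2, secretogranin II of dense-core vesicles, stood at 5327 and 9265 CPM against 361 and 492. Of the 73 CARTPT-high cells on D28 A, 13 were also PNOC-high and 10 CCK-high.

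NTS, the precursor of neurotensin, was in different cells on D11 and later. Its level was 12.1, 36.0, 92.6, 21.5, 53.3 and 235 CPM. D28 overlapped both other days, both D45 libraries lay above both of D11, and D45 B was far above the rest. High cells numbered 42, 100, 172, 72, 122 and 416. On D11, 88.1% and 93.0% of NTS-high cells had a thinned STMN2 UMI, against 11.4% and 14.6% of others, and 23.8% and 25.0% had an SLC17A6 UMI, the vesicular glutamate transporter of excitatory neurons, against 0.4% and 0.5%. On D28 and D45 the STMN2 shares were 29.7%, 29.2%, 13.2% and 12.3% against 54.1%, 44.9%, 44.9% and 40.9%. The sign of the difference between NTS-high and other cells was thus opposite on D11 and on the later days.

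The genes that went with NTS changed in the same way. On D11 CRABP1, which binds retinoic acid, stood at 7252 and 7041 CPM in NTS-high cells against 112 and 150 in cells with none, followed by DACH2, PCDH9, SLC17A6 and NTNG1, and SIM1 and LHX1 were among the leading regional factors. Some NTS-high cells of D28 were rich in collagen transcripts, as 5.18% of 1507 and 5.50% of 200 collagen cells were NTS-high. The NTS-high cells numbered 172 and 72 there, so collagen-rich cells were a large part of them on D28 A. The values for NTS-high cells were not taken without these cells. On D28 and D45 the leading genes were CD38, TFPI2, MS4A7, ID1 and PTX3, with CD38 at 96.4, 118, 174 and 120 against 12.2, 16.6, 32.7 and 21.4. EN1, a midbrain factor, led the regional factors there, at 92.9, 59.3, 23.9 and 35.7 against 49.3, 29.6, 5.61 and 18.2. On D45 a GFAP UMI was found in 28.9% and 19.5% of NTS-high cells against 5.7% and 6.8% of others. The astrocyte markers summed to 1578 and 1067 CPM there, against 374 and 377.

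SST, the precursor of somatostatin, was found together with neuron markers on every day. It stood at 10.9, 9.18, 22.6, 15.7, 52.0 and 78.2 CPM, with no overlap between days, and the D45 mean was 3.40 times that of D28. High cells numbered 55, 44, 58, 40, 88 and 96, so the number of SST-high cells moved less between days than the level did. A thinned STMN2 UMI was found in 96.4%, 100%, 100%, 97.5%, 88.6% and 96.9% of SST-high cells, against 11.3%, 14.8%, 53.4%, 44.6%, 44.3% and 39.6% of others. The neuron markers summed to 4853 to 7398 CPM in SST-high cells, and all 5 were above the cells without SST in each library of D28 and D45.

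The transmitter marker of SST-high cells differed between D28 and D45. At the cells' own depth, 69.0% and 47.5% of SST-high cells on D28 had SLC17A6 without GAD2, the enzyme that makes GABA, and 25.0% and 4.2% on D45. GAD2 without SLC17A6 was found in 3.4% and 12.5% on D28 and in 54.5% and 83.3% on D45. The other cells moved the same way, by fewer percentage points. SLC17A6 was found in 22.1%, 21.3%, 10.6% and 12.5% of them against 69.0%, 52.5%, 30.7% and 11.5% of SST-high cells, and GAD2 in 1.50%, 9.67%, 16.5% and 10.4% against 3.45%, 17.5%, 60.2% and 90.6%. On D11 the SST-high cells were of another kind again, led by GAL (galanin), at 492 and 504 CPM against 11.5 and 15.2, RXRG and UNC5C, with ISL1, a factor of motor neurons, among the leading regional factors. On D28 and D45 the genes that led were HS6ST3, VGF, FABP3, INA and VSTM2L.

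PNOC, the precursor of nociceptin, stood at 4.59, 5.70, 124, 63.1, 25.7 and 39.7 CPM. Both D28 libraries lay above both D45 libraries and these above both of D11. High cells numbered 0, 5, 270, 177, 29 and 82. A thinned STMN2 UMI was found in 65.6%, 73.4%, 65.5% and 74.4% of PNOC-high cells on D28 and D45, against 53.3%, 44.4%, 44.5% and 39.8% of others. GAD2 was more frequent in PNOC-high cells on D28 B (16.4% against 4.1%) and on D45 (20.7% against 9.1% and 20.7% against 5.4%), and TH in all 4 libraries (8.9%, 11.9%, 6.9% and 12.2% against 4.3%, 2.7%, 1.9% and 3.7%). VGF, a granin-like peptide precursor of dense-core vesicles, led the enriched genes at 173, 393, 286 and 336 CPM against 30.0, 24.2, 28.1 and 23.2.

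TAC3, the precursor of neurokinin B, stood at 5.39, 5.02, 24.7, 59.2, 8.56 and 16.8 CPM, with no overlap between days. High cells numbered 0, 0, 43, 187, 3 and 35, most of them in D28 B. A thinned STMN2 UMI was found in 100% and 95.7% on D28 and in 94.3% on D45 B. The excitatory marker prevailed, as 74.4%, 85.0% and 65.7% of TAC3-high cells had SLC17A6 without GAD2 at their own depth. ARPP21, IGSF21, NPY1R (a receptor of neuropeptide Y), GALNTL6 and LHX1 led the enriched genes, with ARPP21 at 575, 336 and 322 CPM against 24.1, 18.9 and 18.4. LHX1, FOXB1 and SIM1 led the regional factors, and FOXB1, known from the mammillary region of the hypothalamus, stood at 262, 124 and 87.0 against 5.06, 7.35 and 6.69.

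CCK, the precursor of cholecystokinin, stood at 0.417, 0.455, 61.4, 8.62, 8.38 and 14.3 CPM. D28 A was far above the other libraries, and D28 B lay inside the range of D45. High cells numbered 0, 0, 72, 13, 14 and 26. A thinned STMN2 UMI was found in 87.5% of CCK-high cells on D28 A and 69.2% on D45 B. The dopaminergic markers went with CCK. TH was found in 51 of 72 CCK-high cells on D28 A (70.8%) at their own depth, and after thinning in 36.1% of them against 4.2% of others, and on D45 B in 26.9% against 3.7%. TH, TAC1 (the precursor of substance P), DDC, NEFL and EN1 led the enriched genes, and EN1, EN2 and FOXA2, factors of the midbrain and its floor plate, led the regional ones. EN1 stood at 256 and 97.2 CPM in CCK-high cells against 48.2 and 19.0.

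**Figure D2:**
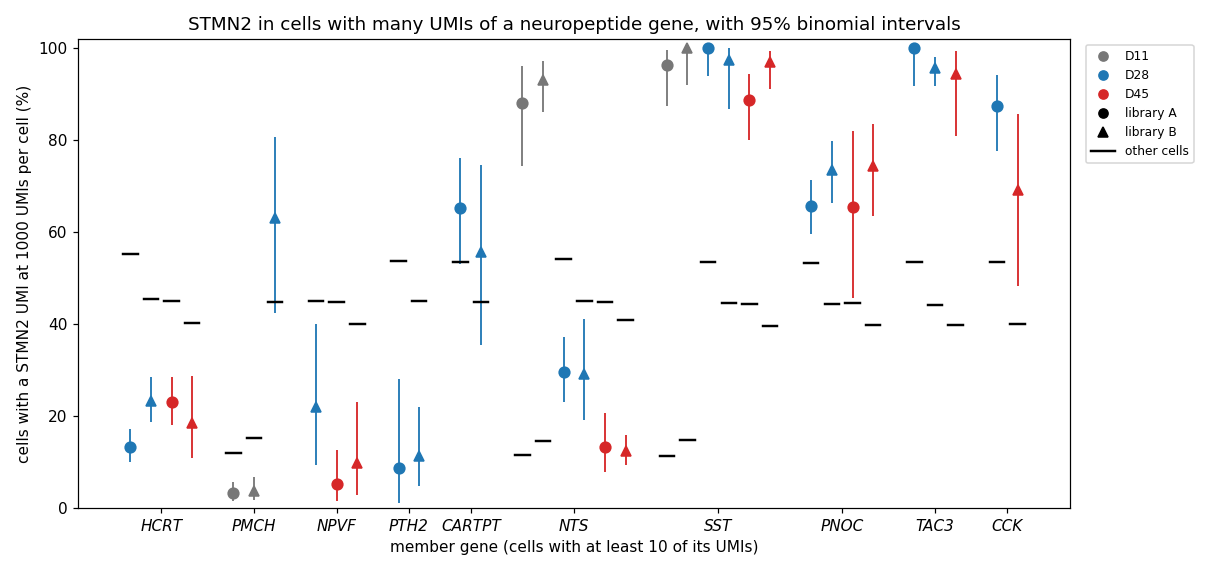
Share of cells with a STMN2 UMI (vertical axis, percent, after thinning to 1000 UMIs per cell) among cells with at least 10 UMIs of each gene, for libraries with at least 20 such cells, with exact 95% binomial intervals that cover counting error only. Colours give the day, circles library A, triangles library B, and black dashes the share in the other cells of the same library. SST lies at 88.6% to 100% and TAC3 at 94.3% to 100%, HCRT at 13.3% to 23.3%, and NTS changes from 88.1% and 93.0% on D11 to 12.3% to 29.7% later.

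The genes therefore fell on both sides of the neuron markers. In SST, PNOC, TAC3 and CCK, all 5 neuron markers were higher in the high cells of every library shown for D28 and D45. In HCRT, NPVF, PTH2 and the NTS-high cells of D28 and D45 the marker sum was lower than in cells with 0 UMIs in every library shown. CARTPT was higher on both sums in both of its libraries. PMCH fell in neither group, with a neuron marker sum below the cells without it on D11 and above on D28 B, where 4 of 5 markers were higher. Since the high cells were cut after the data were seen and cells of a library are not replicates, these counts carry no test.

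**Figure D3:**
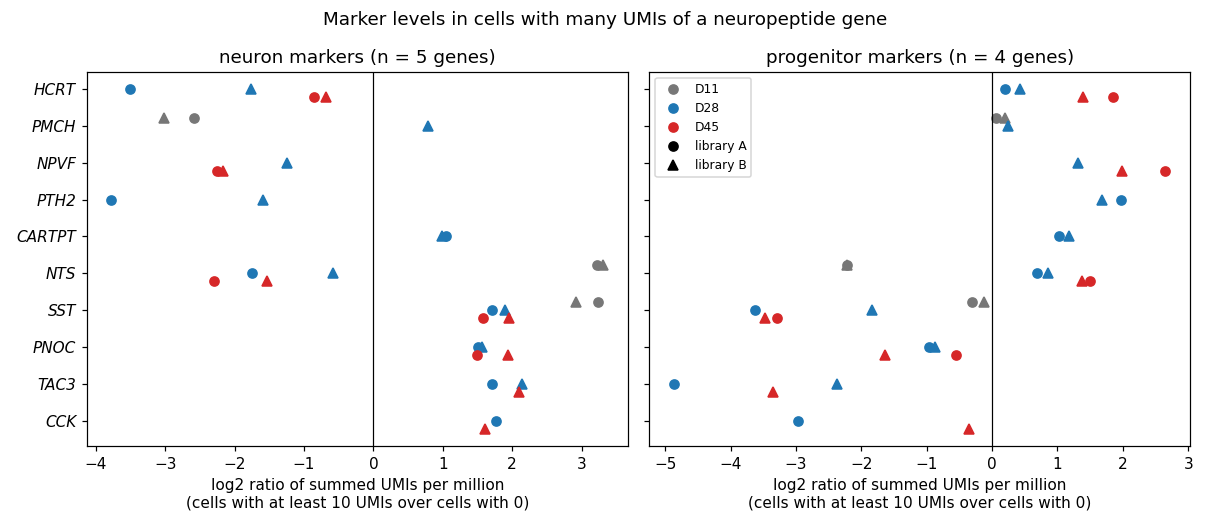
Log2 ratio of summed marker CPM in cells with at least 10 UMIs of a gene over cells with 0 (horizontal axis), for 5 neuron markers on the left and 4 progenitor markers on the right. Each point is a library with at least 20 such cells, coloured by day, circles for library A and triangles for library B. HCRT, NPVF, PTH2 and the later NTS points lie left of 0 for neuron markers and right of 0 for progenitor markers, and SST, PNOC, TAC3 and CCK the other way round.

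The planned list of companion genes looked inside STMN2-positive cells of D28 and D45 alone, with at least 3 UMIs of the member against 0. For the members found with neuron markers, the leading genes there were HS6ST3, VSTM2L, FABP3, UNC5D and C11orf87 for SST, VGF, NSG2, VSNL1, ACHE and INA for PNOC, NXPH4, NRN1, CHST8, SRRM3 and HPCAL1 for TAC3, and EN1, DDC, DIRAS3, CRHBP and ATP1B1 for CCK. EN1 stood at 201, 187, 32.7 and 60.0 CPM with CCK against 51.0, 33.9, 5.76 and 21.4 without, so the midbrain factor went with CCK in all 4 libraries. NXPH4, a neurexophilin secreted by neurons, stood at 111, 90.4, 55.0 and 77.9 CPM with TAC3 against 7.99, 6.97, 10.2 and 7.55.

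At 1 UMI of STMN2 the gate takes in most high cells of the other members too, 67.5% to 72.3% of the HCRT-high cells of D28 and D45 with a median of 1 to 1.5 STMN2 UMIs, so the lists that follow share many of their cells with the high cells above and are no separate support. ISG12(A), IFI6, LGALS3BP, CNMD and SIDT1 were among the leading genes for HCRT, CAPN6, TFPI2, VGLL2 and C1QL3 for NPVF, and TFPI2, CAPN6, SFRP2, GFAP and LHX2 for PTH2. MS4A7, SPARCL1, CD38, ID3 and CRYAB led for NTS, SCG2, VGF, CRHBP, TFPI2 and CLSTN2 for CARTPT, and SLCO1C1, RSPO2, WNT8B, SIM2 and ZIC4 for PMCH on D28. ISG12(A) stood at 385, 551, 94.2 and 314 CPM with HCRT against 80.1, 96.3, 12.8 and 31.7 without. SCG2 stood at 3611, 5581, 5309 and 9555 CPM with CARTPT against 421, 497, 775 and 886.

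To test where the genes are used with libraries as the replicates, UMIs were summed over gated cells of the 4 libraries of D28 and D45 and compared by edgeR's quasi-likelihood test with the library as a block and Benjamini-Hochberg adjustment over all genes tested. In the comparison of STMN2-positive, GFAP-negative cells with GFAP-positive, STMN2-negative cells, GFAP marking astrocytes, 5 of the 10 genes were higher in the STMN2 cells (background of all genes, 16.7%) and 4 were lower (background 11.3%). A gate at 1 UMI is not a cell type. On D28 and D45 STMN2 was found at the cells' own depth in 60.0% to 62.9% of collagen cells against 68.5% to 74.8% of all cells, and GFAP in 3.25%, 6.0%, 13.2% and 17.0% against 1.45%, 1.41%, 13.3% and 18.7%, with median depths of 12987 to 18445 against 2300.5 to 8130 UMIs. With gates at 2 UMIs, where STMN2 was found in 28.6% to 35.7% of collagen cells against 45.0% to 53.6% of all, the 9 calls held. The median of the 10 was 0.10 on the log2 scale, as it was for all genes tested. The GFAP gate was deeper, with median UMIs of 15188, 15789, 7269.5 and 8931 against 6048, 8293, 3687.5 and 5778 in STMN2-positive cells. Member fits at equal depth are not reported here for this comparison. The GFAP gate was small on D28, with 51 and 73 cells, against 772 and 1099 on D45. Few cells carried the members there, so each member was also fitted without the 1 cell with most of its UMIs in each library and gate, an alternative chosen after the data were seen.

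SST differed most toward the STMN2 cells. Its level was 28.9, 21.8, 74.0 and 120 CPM there and 1.27, 0.882, 3.56 and 8.05 in GFAP cells (D28 A, D28 B, D45 A, D45 B), a log2 fold change of 4.08 (SE 0.194, adjusted p = 3.22e-05). TAC3 was higher by 2.90 (SE 0.216, adjusted p = 0.000103) and PNOC by 2.74 (SE 0.245, adjusted p = 0.000200). PMCH was higher by 2.86 (SE 0.436, adjusted p = 0.00218), on 1 to 3 UMIs per library in the GFAP cells, so it is given as a description. CCK was higher by 1.53 (SE 0.454, adjusted p = 0.0365), a call that was lost without D28 replicate B (adjusted p = 0.0819). All 5 of these calls held without the top cells. In the GFAP cells of D28 the other 4 also rested on few UMIs (A, then B). These were 1 and 1 for SST, 3 and 7 for TAC3, 11 and 5 for PNOC and 1 and 4 for CCK.

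On the GFAP side, NPVF stood at 294, 699, 74.2 and 55.2 CPM against 1.14, 27.9, 28.4 and 9.57 in STMN2 cells, a log2 fold change of -3.95 (SE 0.971, adjusted p = 0.0181, and 0.0676 without D28 replicate B). In the GFAP cells, 1 cell held 229 of the 232 NPVF UMIs of D28 A and 1 held 701 of the 793 of D28 B, and without the top cells the log2 fold change was -1.53 (adjusted p = 0.00835). PTH2 stood at 521, 136, 6.03 and 1.89 against 5.75, 12.2, 1.20 and 2.86, so D45 B went the other way, at -3.25 (SE 0.987, adjusted p = 0.0392, 0.132 without D28 replicate B and 0.0428 without the top cells). CARTPT stood at 841, 104, 29.3 and 2.84 against 44.1, 14.0, 4.97 and 3.32, at -2.66 (SE 0.581, adjusted p = 0.0110). In D28 A 1 cell held 572 of its 663 UMIs in the GFAP gate, and without the top cells the call was lost (-0.67, adjusted p = 0.490). HCRT stood at 1095, 215, 800.1 and 160.0 against 347, 190.0, 187 and 78.2, at -1.33 (SE 0.266, adjusted p = 0.00753). In D28 A 1 cell held 835 of the 863 HCRT UMIs of that gate, and this call too was lost without the top cells (-0.28, adjusted p = 0.793). NTS did not pass, at -1.42 (SE 0.550, adjusted p = 0.0856).

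The contrast itself changed between D28 and D45 for 3 genes in the upward direction (background 2.09%) and 2 in the downward one (background 2.89%). NPVF (4.09, SE 0.673, adjusted p = 0.00208), PTH2 (4.15, SE 0.848, adjusted p = 0.00918) and CARTPT (2.15, SE 0.557, adjusted p = 0.0358) were closer to equal between the gates on D45 than on D28. CCK (-2.65, SE 0.681, adjusted p = 0.0343) and NTS (-2.17, SE 0.568, adjusted p = 0.0380) moved toward the GFAP cells on D45, CCK on 1 and 4 UMIs in the GFAP cells of D28. All 5 calls are by edgeR and were lost with DESeq2's Wald test, with adjusted p from 0.0631 for NPVF to 0.393 for CARTPT. Without the top cells the difference for NPVF was 0.60 (adjusted p = 0.589), the other 4 calls remained, and HCRT passed downward (-2.78, adjusted p = 0.00922). Without D28 replicate A the difference for CCK was -0.59 with an adjusted p of 0.732.

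**Figure D4:**
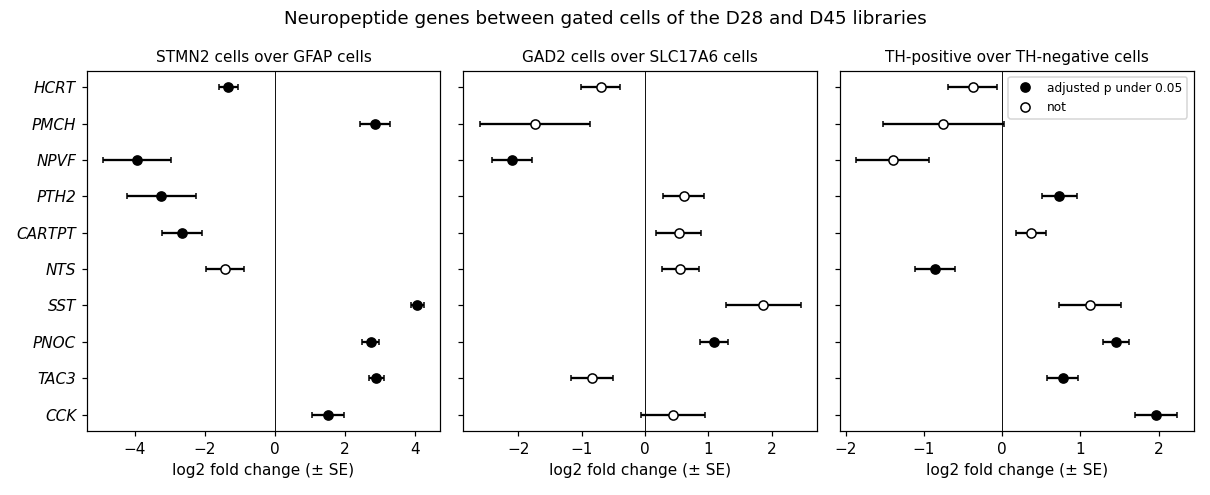
Log2 fold changes with their SE (horizontal axis) of the 10 genes in 3 comparisons of gated cells over the 4 libraries of D28 and D45, by edgeR with the library as a block. Filled circles have an adjusted p under 0.05. In the left panel SST is at 4.08 and NPVF at -3.95, in the middle PNOC is at 1.09 and NPVF at -2.10, and on the right CCK is at 1.97 and NTS at -0.87.

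In the comparison of inhibitory with excitatory markers, STMN2-positive cells with GAD2 and without SLC17A6 (124 to 2487 per library) were set against those with SLC17A6 and without GAD2 (1504 to 2957). GAD2 was found in 0.398% to 7.06% of collagen cells against 1.51% to 16.7% of all cells on these days, and SLC17A6 in 2.60% to 5.50% against 10.7% to 22.3%. PNOC was the member higher in GAD2 cells (background 0.676%), at 197, 229, 64.3 and 149 CPM against 195, 90.8, 28.7 and 43.1, a log2 fold change of 1.09 (SE 0.225, adjusted p = 0.0307). PNOC was nearly equal in both gates of D28 A, and the call was lost with doublets removed (adjusted p = 0.0527) and without D28 replicate B, D45 replicate A or D45 replicate B (0.0538, 0.183 and 0.0614). With gates at 2 UMIs it held, at 1.33 (SE 0.179, adjusted p = 0.000954), and HCRT passed downward there, at -1.37 (SE 0.182, adjusted p = 0.000817), while NPVF was too low to be tested. NPVF was the member lower in GAD2 cells (background 1.54%), at 0, 0.558, 5.68 and 1.15 against 20.3, 2.79, 24.3 and 2.71. Its log2 fold change was -2.10 (SE 0.315, adjusted p = 0.00511), and its call was lost without a cell filter (0.458) and without D45 replicate A (0.104). NPVF had 0, 5, 109 and 14 UMIs in the GAD2 cells. A gene can pass the filter on low counts through the side where it is high, so this call is given as a description. A single SLC17A6 cell of D28 A held 503 of the 506 NPVF UMIs there, and without the top cells the log2 fold change was -0.72 (adjusted p = 0.318), while PNOC remained past the threshold (0.0478).

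SST stood at 164, 43.5, 207 and 618 CPM in GAD2 cells and 59.9, 43.6, 68.6 and 21.9 in SLC17A6 cells. Its log2 fold change of 1.87 (SE 0.589, adjusted p = 0.175) did not pass, and the groups overlapped through D28 B. TAC3 stood at 51.4, 73.1, 18.3 and 16.3 in GAD2 cells against 62.9, 216, 10.9 and 51.0, a log2 fold change of -0.83 (SE 0.329, adjusted p = 0.318). The difference between days passed upward for PMCH (5.12, SE 0.799, adjusted p = 0.0188, background 0.0491%) and downward for HCRT (-1.72, SE 0.256, adjusted p = 0.0188) and CARTPT (-1.97, SE 0.361, adjusted p = 0.0383, background 0.246%). HCRT was higher in GAD2 cells of D28 A, at 121 against 66.5 CPM, and lower in the other 3 libraries, at 43.1, 96.5 and 19.6 against 49.0, 267 and 58.4. PMCH rested on 2, 34, 5 and 56 UMIs in the GAD2 cells, and its difference without D45 replicate B was 2.02 with an adjusted p of 1. For SST the difference between days, 2.56 (SE 0.753), had an adjusted p of 0.297. Without the top cells the difference for CARTPT was 0.16 (adjusted p = 0.970) and that for SST 4.36 (adjusted p = 0.0365), and HCRT and PMCH remained past the threshold. In GAD2 cells of D28 A 1 cell held 136 of the 160 SST UMIs.

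Among STMN2-positive cells, those with a TH UMI (1043 to 1716 per library) were set against those without. TH was found in 2.60% to 9.17% of collagen cells and 5.92% to 11.9% of all cells on these days. The TH cells were deeper, with median UMIs of 8055 against 5541, 9441.5 against 7997, 9125 against 3054 and 8345 against 5124, and the part of depth in these differences was not tested apart from the thinned sums given here. CCK, PNOC, TAC3 and PTH2 were higher in TH cells (background 15.1%) and NTS was lower (background 18.3%). CCK stood at 241, 21.9, 28.5 and 31.0 CPM against 30.9, 7.73, 6.42 and 13.3, a log2 fold change of 1.97 (SE 0.269, adjusted p = 0.00192). PNOC stood at 219, 189, 61.6 and 113 against 118, 49.8, 24.9 and 33.8, at 1.45 (SE 0.164, adjusted p = 0.00109). For both genes every library showed the same direction, and both remained past the threshold when all cells were thinned to 1000 UMIs and with gates at 2 UMIs. With those gates the calls of TAC3, PTH2 and NTS were lost (adjusted p = 0.247, 0.223 and 0.119), and CARTPT passed upward (1.25, adjusted p = 0.0188) and NPVF downward (-3.73, adjusted p = 0.00164).

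TAC3 stood at 35.9, 99.1, 19.1 and 45.1 CPM in TH cells against 29.3, 76.3, 9.01 and 16.1, at 0.77 (SE 0.200, adjusted p = 0.0227). After thinning, its log2 fold change turned to -0.42 (adjusted p = 0.264). PTH2 stood at 19.1, 29.0, 1.98 and 5.38 in TH cells against 12.3, 16.4, 2.54 and 1.88, and NTS at 51.6, 26.8, 13.4 and 141 against 106, 23.9, 47.4 and 253, so D45 A went the other way for PTH2 and D28 B for NTS. PTH2 (0.73, SE 0.225, adjusted p = 0.0420) and NTS (-0.87, SE 0.256, adjusted p = 0.0368) also lost their calls after thinning, with adjusted p of 0.0783 and 0.731. A single cell held 231 of the 275 PTH2 UMIs in TH cells of D28 A and 80 of the 89 of D45 B, and without the top cells PTH2 stood at -0.50 (adjusted p = 0.370), while the calls of CCK, PNOC, TAC3 and NTS remained. HCRT (-0.87, adjusted p = 0.0439) and NPVF (-1.89, adjusted p = 0.0146) passed downward in that fit. Among the differences between days the 1 that passed for these genes was TAC3, upward (1.00, SE 0.142, adjusted p = 0.0307, background 0.798%), and 0.566% of all genes passed downward. Without the top cells HCRT (1.36, adjusted p = 0.0139) and NPVF (2.41, adjusted p = 0.0399) also passed upward. SST stood at 30.7, 29.5, 115 and 344 in TH cells against 27.6, 19.6, 58.3 and 50.4, a log2 fold change of 1.12 (SE 0.396) with an adjusted p of 0.0664.

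The receptors of these peptides and the enzymes that process them were counted in the same comparisons. All 20 processing genes but 11 to 13 of 15 receptors passed the filter on low counts, which a gene can pass through the side where it is high, so the receptor counts are given as descriptions. Of 13 receptor genes tested between the STMN2 and GFAP gates, 7 were higher in STMN2 cells (background 16.7%) and 1 lower (background 11.3%). SSTR2, a somatostatin receptor (3.69, SE 0.470, adjusted p = 0.000888), and HCRTR2, an orexin receptor (3.68, SE 0.375, adjusted p = 0.000361), rose most, and MCHR1, the receptor of the PMCH peptide, was lower (-2.02, SE 0.417, adjusted p = 0.00866). Of 20 processing and vesicle genes, 7 were higher and 1 lower. The prohormone convertases PCSK1 (2.36, SE 0.502) and PCSK2 (2.17, SE 0.221) and the vesicle protein PTPRN (1.87, SE 0.367) were the largest rises, and SCG2 was lower (-2.17, SE 0.352). In GAD2 against SLC17A6 cells, 4 of 20 processing genes and 2 of 11 receptors were lower (background 1.54%) and 0 higher by edgeR (background 0.676%). In TH cells 9 of 20 processing genes were higher and 3 lower, and 6 of 13 receptors were higher and 0 lower (background 15.1% higher and 18.3% lower), the receptors led by HCRTR1 at 1.69 (SE 0.287) and the neurotensin receptor NTSR1 at 1.42 (SE 0.261).

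The receptors and processing genes are not members of the list, and their differences between days were tested over whole organoids. From D11 to D28, 9 of 20 processing genes rose (background 12.5%) and 2 fell (background 10.6%), with SCG2 at 5.70 (SE 0.318, adjusted p = 0.000522) and PCSK1 at 4.60 (SE 0.274, adjusted p = 0.000567). Of 14 receptors 7 rose, led by SSTR1 at 4.40 (SE 0.496), and PTH2R, the receptor of the PTH2 peptide, fell by 2.18 (SE 0.327). From D28 to D45, 2 processing genes rose (background 4.47%) and 2 fell (background 4.93%), with PCSK1 at -1.50 (SE 0.239, adjusted p = 0.0177) and CPE, a carboxypeptidase that trims the cut peptides, at 1.39 (SE 0.233, adjusted p = 0.0202). The calls between D28 and D45 fell away or became few without a replicate of D45. They also became fewer without a replicate of D11, which is not in this contrast, and more without a replicate of D28. The cause was not tested.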

How the data were processed

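Single cells of pMLOs were measured in 6 libraries. The authors used Cell Ranger with the Sscrofa11.1 genome and deposited UMI counts per gene and cell barcode, with no normalization, and the submitters' processing notes also name Seurat 4.3.0. Cells with 200 to 7000 detected genes and at most 10% mitochondrial UMIs were kept, after the study's methods, which left 102940 of 104820 barcodes. Doublets were scored with scrublet in scanpy 1.11.5 (Python 3.11.15), called at the rate expected for the number of cells, and kept in the values given, with their removal as an alternative. No clustering was used, and the authors' cell labels were not used here.

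A cell was positive for a gate gene (STMN2, GFAP, GAD2, SLC17A6 or TH) at 1 UMI. Counts were summed per library and gate over at least 20 cells and tested with edgeR 4.0.16 in R 4.3.3 (TMM, filterByExpr, quasi-likelihood test, library as a block in gate comparisons, Benjamini-Hochberg adjustment over all genes tested, threshold 0.05). Whole-organoid days were fitted over all 6 libraries without a block. As alternatives, the low-count filter or the cell filter was dropped, DESeq2 1.42.0 or edgeR with DESeq2's size factors was used, and runs were made with doublets removed, gates at 2 UMIs, no block, cells thinned to 1000 UMIs, and each library left out. The cut of 10 UMIs for high cells, the genes enriched in them over all cells, the progenitor and floor plate markers, the differences between days for the TH and GFAP gates and the fits without each member's top cell were added after seeing the data. The collagen reference was planned with 0 STMN2 UMIs, and dropping that condition also came after the data were seen. The fits were tested on simulated counts.

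The members, gene lists and tests were chosen with earlier results of these data known. Genes named are the 10 members and the largest 3 rises and falls past the threshold in each list. For each member the leading 5 genes and 3 regional factors are named by their lowest log2 ratio over libraries, with 5 CPM added. The 5 genes had to be found in at least 20% of positive cells, and the factors had no such cut. Both were taken in STMN2-positive cells with 3 UMIs of the member as planned and, beside them, in high cells of all kinds. A few genes that this rule would name are not reported here. Of the listed genes, CALCA, CALCB, NMS, POMC, PYY, UCN, UCN3, CADPS, SSTR4 and CCKBR were not matched to a single row and were not analysed here. The replicate letters did not pair the libraries, since the A minus B differences of different days correlated at -0.32, 0.05 and -0.20 over genes.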

Additional observations from a re-analysis of the deposited data

Results flagged for a closer look

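For 9 combinations of a neuropeptide gene and a pair of gates, the difference between the gates was not the same on D28 and D45, by edgeR's quasi-likelihood test of the interaction with Benjamini-Hochberg adjustment over all genes. Each value is the log2 fold change between gates on D45 minus that on D28. Between GAD2 and SLC17A6 cells these were PMCH at 5.12 (adjusted p = 0.0188), HCRT at -1.72 (adjusted p = 0.0188) and CARTPT at -1.97 (adjusted p = 0.0383). Without D28 replicate A the call for CARTPT was lost, at an adjusted p of 0.0527. Between TH-positive and TH-negative cells it was TAC3 at 1.00 (adjusted p = 0.0307), with an adjusted p of 0.0684 without D45 replicate B. Between STMN2 and GFAP cells these were NPVF at 4.09 (adjusted p = 0.00208), PTH2 at 4.15 (adjusted p = 0.00918), CARTPT at 2.15 (adjusted p = 0.0358), CCK at -2.65 (adjusted p = 0.0343) and NTS at -2.17 (adjusted p = 0.0380). The GFAP gate held 51 and 73 cells on D28, and without D28 replicate A the calls of CARTPT, CCK, PTH2 and NTS were lost. With each member fitted without its top cell in each library and gate, the difference for NPVF between STMN2 and GFAP cells was 0.60 (adjusted p = 0.589) and that for CARTPT between GAD2 and SLC17A6 cells 0.16 (adjusted p = 0.970), and the other 7 calls held. With DESeq2's Wald test all 5 calls between STMN2 and GFAP cells were lost (adjusted p from 0.0631 for NPVF to 0.393 for CARTPT), as was that of PMCH (0.9996), which was at 2.02 with an adjusted p of 1 without D45 replicate B.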

How the results depend on the processing

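The values that follow are numbers of genes past the threshold. Between GAD2 and SLC17A6 cells there were 360, with no filter on low counts 1016, with gates at 2 UMIs 556, thinned to 1000 UMIs 126, and with a library left out 174 (D45 A) to 400.0. For its difference between days there were 48, and 88 to 457 (D28 B) with a library left out, over 1.5 times more in each case. Between TH-positive and TH-negative cells there were 6317, and 834 after thinning. For its difference between days there were 258, 424 with DESeq2 size factors, 586 with DESeq2's Wald test and 65 (D45 A) to 931 (D28 A) with a library left out. Between STMN2 and GFAP cells there were 5134, 3380 after thinning and 2553 (D45 A) to 5477 with a library left out, and for its difference between days 912, and 467 (D45 A) to 1169. Over whole organoids there were 5131 from D11 to D28 and 1112 (D11 A) to 10545 (D28 B) with a library left out, and 2086 from D28 to D45, 4336 with DESeq2's Wald test and 0 (D45 A) to 10003 (D28 B) with a library left out. Where a day is left with 1 library, that library is assumed to vary like the others. With no replicate block the gate comparisons gave 10, 3 and 1385 genes, and with the replicate letter as a block the days gave 3314 and 628, although the letters did not pair the libraries. The cause of these changes was not tested, apart from fewer samples or genes.

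Some differences between gates reversed. CCK between GAD2 and SLC17A6 cells was at -0.74 with gates at 2 UMIs and at -0.45 to 0.94 with a library left out, PMCH at -3.65 to 0.21 and CARTPT at -0.026 to 0.94. Between TH gates, PMCH was at -1.64 to 0.15 and HCRT at -0.63 to 0.040 with a library left out, and after thinning TAC3 was at -0.42 and FURIN at 0.15. Without the members' top cells, CCK was at -0.70 and CARTPT at -0.21 between GAD2 and SLC17A6 cells, PTH2 at -0.50 between TH gates, and the difference between days for CARTPT in GAD2 cells at 0.16. Of the members' refits, 347 kept direction and side of the threshold, 56 lost the call, 39 gained one and 11 reversed. Of 60 shares of positive cells, 45 were at least 1%, 25 at 2 UMIs, 17 at 3 UMIs, 24 thinned to 1000 UMIs, 10 at 10 UMIs and 4 at 3 of 1000 UMIs. After thinning to 1000 UMIs STMN2 was more frequent with the member in 31 of 48 combinations at 1 UMI and in 20 of 35 at 10 UMIs, and at the cells' own depth in 45 of 55 and 27 of 35, and of 45 leading genes 24 were shared when high cells of all kinds replaced STMN2-positive cells with 3 UMIs. The depth of D45 A, with a median of 2300.5 UMIs per cell, limits what could be detected there.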

Other observations

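Other neuropeptide genes, fixed as a list of 37 of which 30 were matched, also differed between the gates. In GAD2 cells GAL (galanin) was higher than in SLC17A6 cells by 5.52 on the log2 scale (SE 0.150) and ADCYAP1, the precursor of PACAP, was lower by 3.22 (a log2 fold change of -3.22, SE 0.246). In TH-positive cells VIP was at 3.97 (SE 0.434), GRP at 3.03 (SE 0.563) and NPY at -0.86 (SE 0.200), and of the 20 that passed the filter on low counts 7 were higher (background of all genes 15.1%) and 2 lower (18.3%). NPY was also lower in STMN2 cells than in GFAP cells (-3.22, SE 0.622), while GAL, TAC1 and ADCYAP1 were higher. From D11 to D28 TAC1 rose by 8.85 (SE 0.945) and PENK, an opioid precursor, by 8.07 (SE 1.22), and GAL fell by 2.87 (SE 0.399). All of these passed edgeR's quasi-likelihood test at an adjusted p under 0.05.

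Regional transcription factors split the same gates. Between GAD2 and SLC17A6 cells LHX6 was at 5.53 (SE 0.329), BARHL1 at -3.91 (SE 0.310), LMX1A at -2.33 (SE 0.167) and DLX5 at 6.69 (SE 0.252), the last with 66.8, 204, 127 and 166 CPM in GAD2 cells against 0.161, 1.35, 2.28 and 2.08. Genes high on 1 side alone can pass the filter through that side, so nothing is read from counts over the genes of a list that passed it. In TH-positive cells PITX3 was at 2.79 (SE 0.410) and EN1 at 1.99 (SE 0.183). From D28 to D45 over whole organoids FOXA2 was at -2.77 (SE 0.180) and RAX at 5.60 (SE 0.653), calls that did not hold without D45 replicate A.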
